A study of Mus musculus with 30 samples.

Results

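Myostatin and the genes around it were followed through 4 experiments in mouse muscle as a set of 9 genes, Mstn, Gdf11, Fst, Fstl3, Acvr2a, Acvr2b, Tgfb1, Smad3 and Smad7, taken by name from the 47643 gene symbols of the deposited expression table. All 9 were found. Myostatin, the product of Mstn, is a secreted protein made mainly by muscle fibres that holds muscle size down, and animals without it are heavily muscled. Myostatin, its close relative GDF11 and the activins bind the type II receptors encoded by Acvr2a and Acvr2b, which act through type I receptor kinases on SMAD2 and SMAD3, whereas TGF-beta 1 reaches the same SMADs through receptors of its own. Follistatin and follistatin-like 3, the products of Fst and Fstl3, trap myostatin, GDF11 and the activins outside the cell, and SMAD7 blocks the signal inside it. In GENCODE M21 (mm10) the ligand genes lie at chr1:53061640-53068079 on the plus strand (Mstn), chr10:128882295-128891718 on the minus strand (Gdf11) and chr7:25687002-25705077 on the plus strand (Tgfb1). The trap genes lie at chr13:114452290-114458951 on the minus strand (Fst) and chr10:79777272-79782630 on the plus strand (Fstl3), and the receptor genes at chr2:48814109-48903269 (Acvr2a) and chr9:119402118-119434995 (Acvr2b), both on the plus strand. Smad3 lies at chr9:63646767-63757994 on the minus strand and Smad7 at chr18:75367529-75395935 on the plus strand.

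RNA came from the tibialis anterior, the main muscle that lifts the foot, of male C57BL/6J mice in 30 libraries. Muscle of old mice (24 months, n = 3) was set against muscle of young mice (6 months, n = 3), and muscle after dexamethasone, a synthetic glucocorticoid, against its own control (n = 4 each). Muscle of mice with LLC cancer, an abbreviation left unexpanded in the labels, was set against its own control (n = 4 each). Muscle given Cyr61 siRNAs, directed at the gene of a secreted matrix protein, was set against muscle given siRNAs labelled NT (n = 4 each). No source used here gives a dose, a duration, a route or, outside the old and young groups, an age. The samples are called biological replicates without saying that each came from a separate animal, so p-values measure only the spread between these samples.

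Expression was given in TPM, a unit in which genes are scaled by length and every library sums to 1000000. The read totals recovered from the values ranged from 3.01e+07 to 6.11e+07 per library. All 8 myofibre markers examined were present and together took 6.52 to 12.0% of TPM. Mitochondrially encoded genes took 34.0 to 41.5% of TPM in the dexamethasone libraries, against 46.3 to 50.7% in their controls, and 60.4% in the library LLC 3. In old muscle they took 43.7 to 51.4%, against 48.0 to 52.5% in young muscle. On the log2(TPM + 1) scale the median gene was 0.33 higher after dexamethasone and 0.14 higher in old muscle. With TPM rescaled without mitochondrially encoded genes those shifts were 0.099 and 0.105, and after median-of-ratios scaling, which sets the typical gene of each library level, they were 0.02 and 0.01. A gene is called here when its adjusted p in limma is under 0.05, and fold differences are on the log2(TPM + 1) scale, which understates the change of low genes.

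Of the 9 genes, Smad3, the intracellular mediator, had the highest level, with a mean of 33.7 TPM over all 30 libraries. Mstn followed with 16.2 TPM, more than 85.9% of the 23193 genes detected in any library. The receptor genes Acvr2a and Acvr2b averaged 8.34 and 3.01 TPM, and the ligand genes Tgfb1 and Gdf11 averaged 4.96 and 2.91 TPM. The inhibitor genes averaged 3.09 TPM for Smad7, 2.60 TPM for Fst and 0.798 TPM for Fstl3, the lowest of the 9, whose values rested on 8 to 140 recovered reads per library. Levels moved least between libraries for Acvr2a, 2.84-fold between its lowest and highest library, and most for Fst, 26.9-fold.

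**Figure D1:**
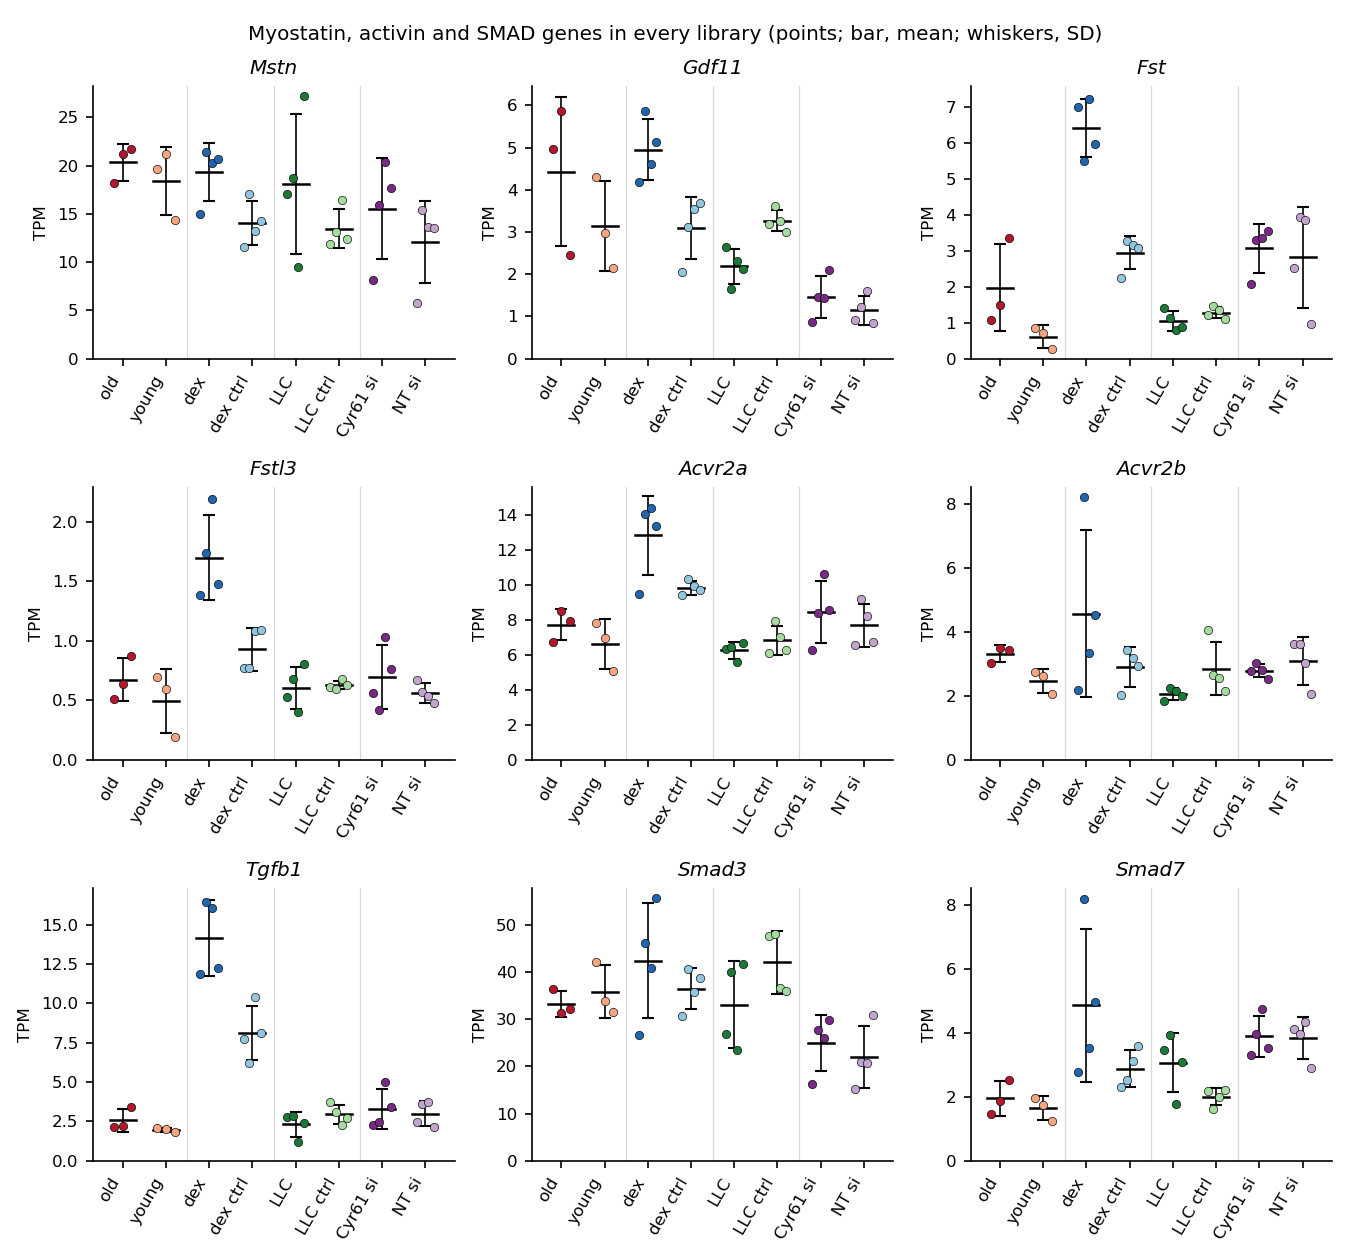
TPM of the 9 genes (vertical axes, each with its own scale from 0) in the 8 groups, with 1 point per library, a bar at the mean and whiskers of 1 SD; vertical lines part the experiments, and within each the treated or old group stands left of its control. Fst after dexamethasone lies between 5.49 and 7.20 TPM, above all 26 other libraries, while Mstn overlaps between neighbouring groups throughout.

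Across the groups, Mstn averaged 20.4 ± 1.93 TPM in muscle of old mice and 18.4 ± 3.57 TPM in that of young mice (SD, n = 3 each). It averaged 19.3 ± 2.96 TPM after dexamethasone and 14.03 ± 2.29 TPM in its control, and 18.1 ± 7.25 TPM under LLC and 13.5 ± 2.04 TPM in its control (SD, n = 4 each). With Cyr61 siRNA it averaged 15.5 ± 5.25 TPM and with NT siRNA 12.1 ± 4.28 TPM (SD, n = 4 each). From the highest mean to the lowest the order was old, dexamethasone, young, LLC, Cyr61 siRNA, dexamethasone control, LLC control and NT siRNA, and each group overlapped the next. In TPM as deposited the order of Tgfb1 had clear steps. The dexamethasone group averaged 14.2 ± 2.42 TPM and its control 8.12 ± 1.73 TPM (SD, n = 4 each). The libraries of these groups did not overlap, and the control did not overlap the next group either. The other 6 group means of Tgfb1 ran from 1.95 TPM in young muscle to 3.29 TPM with Cyr61 siRNA, and neighbours overlapped. Fst and Fstl3 each had 1 step, between dexamethasone and the group after it, which for Fst was Cyr61 siRNA at 3.07 TPM and for Fstl3 the dexamethasone control at 0.927 TPM. Gdf11, Acvr2a, Acvr2b and Smad3 overlapped at every neighbour, and Smad7 at every neighbour except its dexamethasone control (2.88 TPM) and LLC control (2.00 TPM). Gdf11 was lowest in the siRNA experiment, with 1.46 ± 0.507 TPM for Cyr61 siRNA and 1.14 ± 0.340 TPM for NT siRNA (SD, n = 4 each). Differences between experiments and between groups of different experiments cannot be told apart, so the tests were made within each.

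After dexamethasone the ligand traps and the ligands were higher as deposited. Fst, Tgfb1, Gdf11, Fstl3 and Mstn were called higher, 5 of 9 genes, and none lower. Fstl3 passed the filter through the dexamethasone group. Of all 11944 genes in the same fit, 35.9% rose and 1.51% fell, so the count is read against a background that is itself large. At an unadjusted p under 0.05 stood 6 of the 9, beside 52.9% of all genes. The median difference of the 9 genes was 0.48, beside 0.33 for all genes tested. After scaling, 1 of the 9, Fst, was still called higher, beside 4.44% of all genes. In TPM as deposited the values of 4 of the 9 genes, Fstl3 among them, did not overlap between the groups, beside 36% of all genes tested. These are values of whole muscle, in which fewer cells of a type and less RNA per cell cannot be told apart.

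Fst, the gene of follistatin, stood at 6.99, 5.49, 7.20 and 5.96 TPM in the dexamethasone libraries, against 2.25, 3.26, 3.16 and 3.08 TPM in the control libraries. Every dexamethasone library was above every control library. The means were 6.41 ± 0.818 and 2.94 ± 0.462 TPM (SD, n = 4 each), a ratio of 2.18 and a log2 difference of 0.91 with an SE of 0.13 (limma, adjusted p = 0.00215). Relative to the median gene the difference was 0.58, and after scaling it was 0.62 (adjusted p = 0.0316). Fst was called in 8 of 8 fits that each left out 1 library and in all 11 settings tried with all libraries. With scaling and 1 library left out together it was called in 3 of 8 fits, with an adjusted p between 0.0118 and 0.0864, and it was higher in all 8.

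Tgfb1, the gene of TGF-beta 1, stood at 11.9, 16.4, 16.05 and 12.2 TPM in the dexamethasone libraries, against 7.74, 6.22, 10.4 and 8.11 TPM in the controls. As deposited the groups did not overlap, with control 3 nearest to the treated libraries. The median-of-ratios factors were 1.183 for dexamethasone 4 and 0.912 for control 3. Divided by them, control 3 lies above dexamethasone 4, so the scaled groups overlap. The log2 difference was 0.74 with an SE of 0.16 (limma, adjusted p = 0.00970), called in 8 of 8 fits that left out 1 library. It was 0.41 relative to the median gene, and after scaling 0.40 (adjusted p = 0.0920).

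Gdf11 had 4.19, 5.87, 4.61 and 5.13 TPM in the dexamethasone libraries, against 2.05, 3.13, 3.55 and 3.68 TPM in the controls. The groups did not overlap, and the log2 difference was 0.55 with an SE of 0.16 (limma, adjusted p = 0.0246). Mstn had 14.96, 21.4, 20.3 and 20.7 TPM in the dexamethasone libraries, against 11.6, 17.0, 13.2 and 14.3 TPM in the controls. Here dexamethasone 1 lay within the control range and the other 3 lay above it, with a log2 difference of 0.44 and an SE of 0.15 (limma, adjusted p = 0.0405). The Mstn difference was 0.11 relative to the median gene, and after scaling 0.09 (adjusted p = 0.685). It was called in 2 of 8 fits that left out 1 library, those without dexamethasone 1 and control 2, with an adjusted p of up to 0.120 in the others. Gdf11 was called in 4 of 8, and not without dexamethasone 2 or 4 or control 1 or 2 (adjusted p of up to 0.0699). Scaled, the Gdf11 difference was 0.26 (adjusted p = 0.210).

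Fstl3, the second ligand trap, had 1.39, 1.74, 2.19 and 1.48 TPM in the dexamethasone libraries, against 0.769, 0.768, 1.08 and 1.09 TPM in the controls, without overlap. The log2 difference was 0.48 with an SE of 0.12 (limma, adjusted p = 0.0172), and after scaling 0.28 (adjusted p = 0.127). It was called in 6 of 8 fits that left out 1 library, and not without control 1 (adjusted p = 0.0582) or control 2 (adjusted p = 0.0605). Fstl3 passed the filter of 1 TPM in 4 libraries through the dexamethasone group, so being tested here and in no other pair of groups went with being higher.

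The receptors and SMADs were not called after dexamethasone. Acvr2a had 9.49, 14.1, 14.4 and 13.3 TPM in the dexamethasone libraries, against 9.41 to 10.3 TPM in the controls, a log2 difference of 0.34 (limma, adjusted p = 0.0680) that is 0.01 relative to the median gene. Acvr2b had 2.17, 8.21, 3.34 and 4.54 TPM against 2.02 to 3.45 TPM in the controls (0.42, adjusted p = 0.224). Smad7, an inhibitor that the pathway itself induces, had 2.77, 8.18, 3.52 and 4.97 TPM against 2.30 to 3.58 TPM (0.52, adjusted p = 0.105). The library dexamethasone 2 held the highest value of both Acvr2b and Smad7. Smad3 had 26.6, 46.3, 40.9 and 55.8 TPM in the dexamethasone libraries, against 30.7 to 40.7 TPM in the controls (0.17, adjusted p = 0.464). Relative to the median gene Smad3 was at −0.16, and after scaling Smad3 at −0.19 and Acvr2a at −0.003 had the other sign.

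One library moved these counts. Dexamethasone 1 held the lowest value of its group in 8 of the 9 genes, all but Fst, and its mitochondrial share, 41.5%, was the highest of the 4. Without it, 9 of 9 genes were called higher, and the fit as a whole called 8495 genes higher and 220 lower. With scaling and without this library 1 of the 9 genes was called, and the fit as a whole called 509 genes higher and 750 lower. Over all the fits that left out 1 library, 2 to 9 of the genes were called. In exact permutation tests (two-sided) Fst, Tgfb1, Gdf11 and Fstl3 reached p = 0.0286, the smallest value that 4 against 4 libraries allow, and no gene was under the threshold after adjustment over all 36 such tests (0.206).

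The summed TPM of macrophage markers was higher in the dexamethasone group. A sum can rest on a few abundant markers, and single markers were not compared. The 8 markers examined, all of them present, summed to 1529, 1114, 2423 and 985 TPM in the dexamethasone libraries, against 389, 291, 449 and 255 TPM in the controls. The sum of 8 fibroadipogenic progenitor markers was 694 to 986 TPM in the dexamethasone libraries and 537 to 761 TPM in the controls. The lowest dexamethasone library of the macrophage sum was above the highest control, and Tgfb1 is also expressed by macrophages. The sum of 5 tendon cell markers was 116 to 156 TPM in the dexamethasone libraries and 66.5 to 114 TPM in the controls. That of 6 lymphocyte markers was 0.274 to 0.881 TPM and 2.19 to 5.55 TPM, and both were without overlap as deposited. Divided by the median-of-ratios factors, 1.183 for dexamethasone 4 and 0.912 for control 3, the tendon sums overlap. The part of these cells in the values of Tgfb1, Fst or the other genes was not tested.

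**Figure D2:**
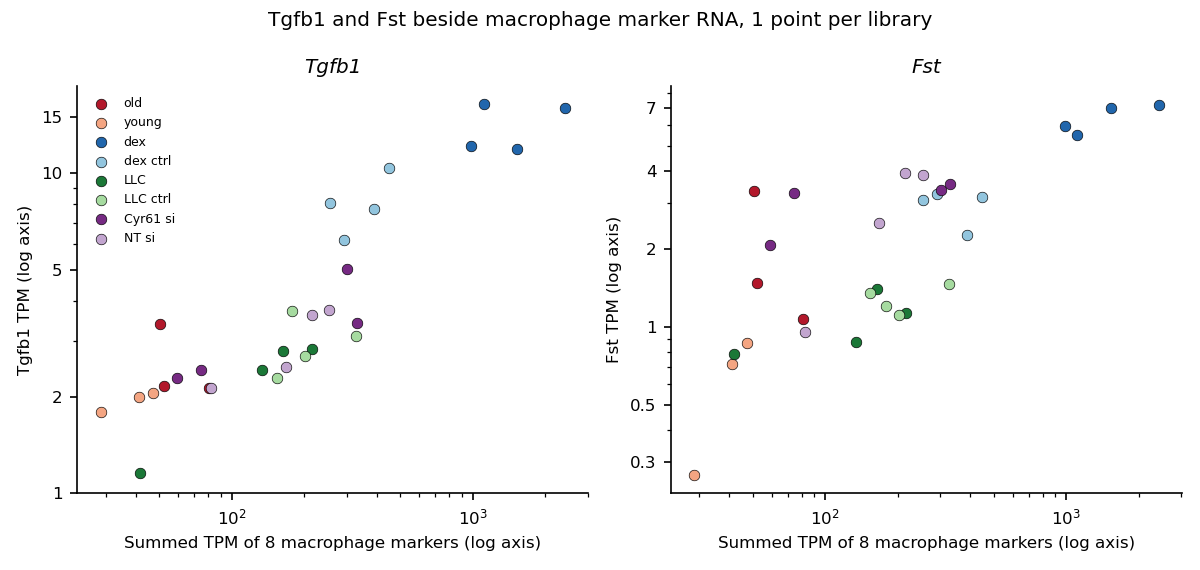
TPM of Tgfb1 (left) and Fst (right) against the summed TPM of 8 macrophage markers, both on log axes, with 1 point per library coloured by group. The 4 dexamethasone libraries stand at the upper right of both panels, at marker sums of 985 to 2423 TPM.

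Promoter sequence was compared because 5 of the 9 genes were called higher after dexamethasone as deposited. After scaling only Fst was called, and the windows below also cover genes that were not called in either form. RefSeq windows (GRCm38.p6) of the 250 bases before the start were matched for 7 of the 9 genes, all but Fst and Smad7, and searched on both strands. The letters searched were AGAACA, the hexamer of the glucocorticoid response element, CAGAC, the SMAD box, GTCTAGAC, the SMAD palindrome, and TATAAA, the TATA box. The complete glucocorticoid response element, which contains the hexamer and its inverted copy, was searched as well. Among 32851 windows of this length, 16.1% held AGAACA, 42.2% CAGAC, 12.4% TATAAA, 0.167% GTCTAGAC and 0.00913% the complete element. TATAAA was found in 3 of the 7 windows, those of Mstn, Gdf11 and Fstl3, which are shown with each match to the TATA box, the glucocorticoid hexamer or the SMAD box, in either orientation, in capitals.
Mstn, chr1:53061390-53061639, plus strand: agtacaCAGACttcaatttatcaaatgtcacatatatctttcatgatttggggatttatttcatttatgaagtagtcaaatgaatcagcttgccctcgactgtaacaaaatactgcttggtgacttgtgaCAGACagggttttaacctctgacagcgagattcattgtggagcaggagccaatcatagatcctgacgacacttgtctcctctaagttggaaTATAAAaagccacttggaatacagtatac
Gdf11, chr10:128891719-128891968, minus strand: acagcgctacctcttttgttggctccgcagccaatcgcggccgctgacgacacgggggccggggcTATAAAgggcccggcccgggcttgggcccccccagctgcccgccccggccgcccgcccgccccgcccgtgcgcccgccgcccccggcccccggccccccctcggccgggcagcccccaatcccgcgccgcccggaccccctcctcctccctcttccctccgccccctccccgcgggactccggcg
Fstl3, chr10:79777024-79777273, plus strand: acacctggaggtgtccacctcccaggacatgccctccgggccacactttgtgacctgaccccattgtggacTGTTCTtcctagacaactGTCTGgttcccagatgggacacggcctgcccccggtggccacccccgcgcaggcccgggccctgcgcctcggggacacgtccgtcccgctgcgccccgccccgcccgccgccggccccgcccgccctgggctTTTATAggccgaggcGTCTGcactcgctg
The Mstn window held 2 CAGAC and 1 TATAAA, that of Gdf11 1 TATAAA, and that of Fstl3 2 CAGAC, 1 AGAACA and 1 TATAAA. Acvr2a and Acvr2b held 1 CAGAC each, the windows of Tgfb1 and Smad3 held none of the letters, and neither the complete element nor the palindrome was in any of the 7. These are matches of letters, and say nothing of binding.

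Among 81 further genes of the pathway, in 5 lists of ligands, receptors, SMADs with their partners, extracellular inhibitors and processing factors, and targets, 59 passed the filter in the dexamethasone comparison. As deposited 27 of them rose and none fell, beside 35.9% of all genes tested that rose. After scaling 11 were called higher and none lower, beside 4.44% of all genes that were called higher. The lists were chosen with earlier results of these data known, so the counts are descriptions only. The receptors were called in 6 of 10 cases and in 3 after scaling: Tgfbr1, the type I receptor of TGF-beta, averaged 21.6 ± 4.95 TPM after dexamethasone and 10.3 ± 1.11 TPM in the control (log2 difference 0.99, adjusted p = 0.00281). Tgfbr2, its type II partner, averaged 34.0 ± 6.67 and 19.9 ± 2.37 TPM in these groups (0.73, adjusted p = 0.00710), and the co-receptor gene Tgfbr3 averaged 11.35 ± 2.80 and 6.32 ± 0.466 TPM (0.73, adjusted p = 0.00857). The other 3 called as deposited, none of them after scaling, were the type I receptor genes Acvr1 (0.50, adjusted p = 0.0432), Bmpr1a (0.54, adjusted p = 0.0272) and Bmpr1b (0.43, adjusted p = 0.0246), named after their values were seen. Of the ligands 2 of 7 were called, Tgfb3 at 36.9 ± 5.19 TPM after dexamethasone and 19.2 ± 3.93 TPM in the control (0.92, adjusted p = 0.00413) and Tgfb2 at 9.27 ± 1.26 and 6.72 ± 0.463 TPM (0.41, adjusted p = 0.0280). Tgfb2 and Smad2 were not called after scaling (adjusted p = 0.590 and 0.793).

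Of 13 extracellular genes 6 were called, 2 of them after scaling, beside 35.9 and 4.44% of all genes called higher. Thbs1, a matrix protein that can activate latent TGF-beta, averaged 15.8 ± 6.47 TPM after dexamethasone and 5.25 ± 0.748 TPM in the control (log2 difference 1.34, adjusted p = 0.00636). Ltbp2, a latent TGF-beta binding protein family member, averaged 4.20 ± 1.93 and 0.911 ± 0.212 TPM (1.37, adjusted p = 0.00438). The control mean of Ltbp2 was under 1 TPM, so it could not pass the filter without dexamethasone libraries. Its call, part of both counts, is not read like those of other genes. Ltbp3, which holds latent TGF-beta in the matrix, averaged 30.8 ± 8.05 and 18.4 ± 2.44 TPM (0.69, adjusted p = 0.0160, and 0.0818 after scaling). Among the 11 SMADs and partners 2 were called: Tgif1, a SMAD corepressor, averaged 7.14 ± 1.00 TPM after dexamethasone and 3.21 ± 0.623 TPM in the control (0.96, adjusted p = 0.00241), and Smad2 averaged 7.49 ± 0.947 and 5.53 ± 0.356 TPM (0.37, adjusted p = 0.0304). All SDs here are over 4 libraries in each group.

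The targets, the list with the most genes tested, held 11 calls of 18 as deposited and 4 after scaling, beside 35.9 and 4.44% of all genes called higher. Cdkn1a, the gene of the cell cycle inhibitor p21, averaged 99.9 ± 26.8 TPM after dexamethasone and 25.1 ± 6.64 TPM in the control (log2 difference 1.95, adjusted p = 0.000812), and Ctgf, a matrix protein gene, averaged 20.2 ± 5.495 and 9.05 ± 3.30 TPM (1.09, adjusted p = 0.0130). Glucocorticoids are known to induce Cdkn1a, and the part of either pathway in its level was not tested. The medians of the lists relative to the median gene were −0.04 for ligands, 0.19 for receptors, 0.05 for SMADs, 0.19 for extracellular genes and 0.29 for targets.

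**Figure D3:**
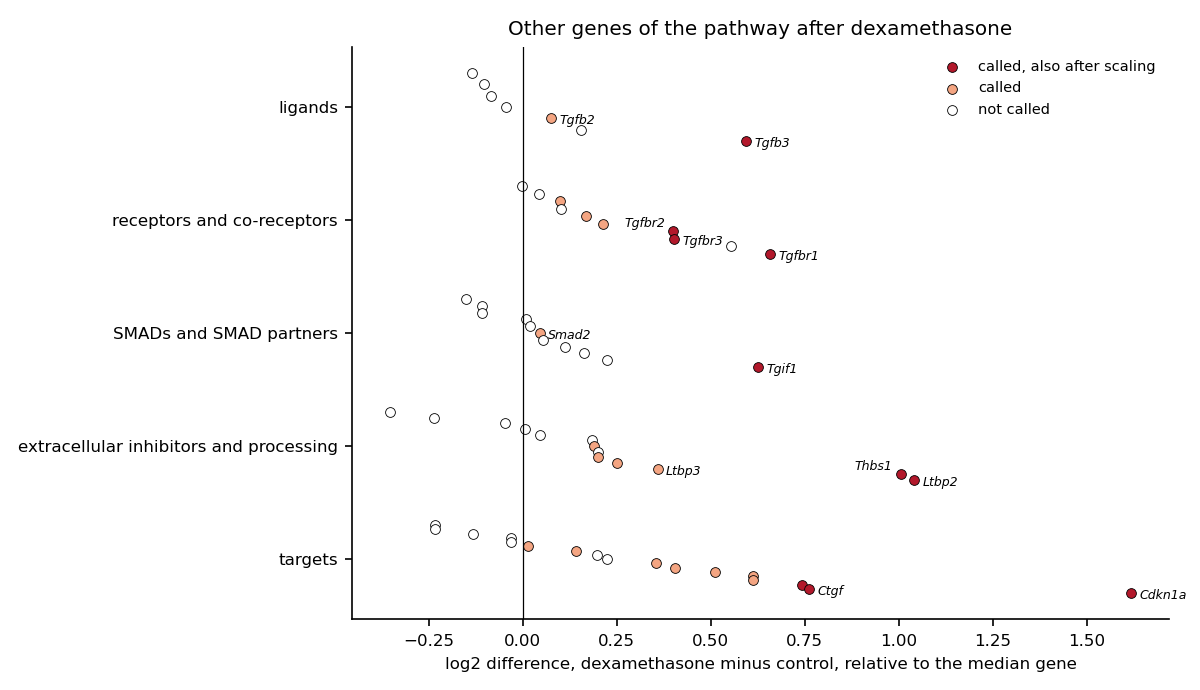
Log2 difference of other genes of the pathway, dexamethasone minus control, relative to the median of all genes tested (horizontal axis), in 5 lists; filled points are called, dark ones also after median-of-ratios scaling. Cdkn1a stands farthest right of the genes drawn, at 1.62.

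Under LLC cancer none of the 8 genes tested was called by limma, beside 1.18% of all 10830 genes tested. At an unadjusted p under 0.05 stood 3 of the 8, Gdf11, Acvr2b and Smad7, beside 13.2% of all genes, and limma voom on recovered reads called none. The median difference of the 8 was −0.22, beside −0.05 for all genes tested. Smad7 and Mstn were the 2 of the 8 genes with a difference above 0.

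Gdf11 had 2.65, 1.66, 2.32 and 2.13 TPM in the LLC libraries, against 3.19, 3.62, 3.26 and 3.01 TPM in the controls. All LLC libraries were below all controls, a separation seen in 7.63% of all genes tested. The log2 difference was −0.43 with an SE of 0.11 (limma, adjusted p = 0.103), and it was below 0 in 8 of 8 fits that left out 1 library, with an adjusted p from 0.0643 to 0.264. In an exact permutation test (two-sided) it reached p = 0.0286, the smallest possible, and 0.206 adjusted over 36 tests.

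Smad7 had 3.46, 3.92, 1.77 and 3.09 TPM in the LLC libraries, against 2.19, 1.62, 2.00 and 2.21 TPM in the controls. LLC 1, 2 and 4 were above all controls, while LLC 3 lay within the control range. The log2 difference was 0.41 with an SE of 0.16 (limma, adjusted p = 0.306), larger than that of 97.5% of all genes tested. Without LLC 3 it was 0.58 (adjusted p = 0.0217), and with TPM rescaled without mitochondrially encoded genes 0.59 (adjusted p = 0.0487). The library LLC 3 held the lowest value of its group in 7 of the 9 genes.

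Mstn had 17.0, 18.7, 9.52 and 27.2 TPM in the LLC libraries, against 11.9, 13.2, 16.4 and 12.4 TPM in the controls. Its LLC values spanned the whole control range, with LLC 3 below it and LLC 1, 2 and 4 above it, and the log2 difference was 0.33 with an SE of 0.24 (limma, adjusted p = 0.640). Fst averaged 1.05 ± 0.276 TPM under LLC and 1.28 ± 0.155 TPM in the control (−0.16, adjusted p = 0.616). Tgfb1 averaged 2.30 ± 0.784 and 2.95 ± 0.606 TPM (−0.28, adjusted p = 0.573), and Smad3 33.0 ± 9.21 and 42.1 ± 6.63 TPM (−0.37, adjusted p = 0.459). Acvr2a averaged 6.25 ± 0.487 TPM under LLC and 6.81 ± 0.837 TPM in the control (−0.11, adjusted p = 0.775), and Acvr2b 2.06 ± 0.178 and 2.85 ± 0.826 TPM (−0.31, adjusted p = 0.362). In these 5 genes the groups overlapped (SD, n = 4 each). Fstl3, under the filter, had 0.602 ± 0.177 TPM under LLC and 0.627 ± 0.0355 TPM in the control.

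Of the 57 other pathway genes tested under LLC, Inha, the gene of the inhibin alpha chain, fell to 2.92 ± 0.348 TPM, against 4.95 ± 0.866 TPM in the control (SD, n = 4 each; log2 difference −0.60, limma adjusted p = 0.0428), beside 0.886% of all genes called lower. It was called in 1 of 8 fits that left out 1 library, that without LLC 3, with an adjusted p from 0.0379 to 0.134, and in each of them it was lower under LLC. None of the other 56 was called as deposited, and after scaling Acvrl1, a type I receptor gene, was called higher and Inha and the collagen genes Col1a2 and Col3a1 lower, beside 3.24% of all genes in either direction. Acvrl1, Col1a2 and Col3a1 are named after their values were seen. The sum of 4 red cell markers was 7773, 6056, 714 and 2149 TPM in the LLC libraries, against 621 to 789 TPM in the controls, with LLC 3 within the control range. The fibroadipogenic progenitor markers summed to 248, 409, 139 and 183 TPM in the LLC libraries and 353 to 396 TPM in the controls, and the tendon cell markers to 51.2, 104, 38.6 and 37.5 TPM and 83.4 to 115 TPM, with LLC 2 the highest library of its group in both. The part of these cells in the values of the genes was not tested.

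In old muscle none of the 8 genes tested was called by limma, beside 0.171% of all 10511 genes tested. At an unadjusted p under 0.05 stood Fst alone, beside 11.2% of all genes, and limma voom called none of the 8. The median of the 8 genes was 0.23 higher, beside 0.14 for all genes tested. In TPM as deposited, Fst, Acvr2b and Tgfb1 did not overlap between old and young libraries, 3 of the 8 genes, beside 16.2% of all genes tested. Fst passed the filter of 1 TPM in 3 libraries only through the old group, as every young library was under 1 TPM. Being tested thus went with being higher and without overlap for Fst, which is no support.

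Fst had 1.07, 1.48 and 3.35 TPM in the old libraries, against 0.862, 0.715 and 0.268 TPM in the young libraries. Old 3 stood far above the other libraries of its group and young 3 far below those of its own. The log2 difference was 0.82 with an SE of 0.23 (limma, adjusted p = 0.187), larger than that of 99.3% of all genes tested. In 4 of 6 fits that left out 1 library it was called, with an adjusted p from 0.00295, and it was not called without old 3 (adjusted p = 0.601) or young 3 (adjusted p = 0.974). An exact permutation test (two-sided) gave p = 0.1, the smallest that 3 against 3 libraries allow. Since Fst entered the fits only through old libraries, its rank and calls are not read like those of other genes.

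Acvr2b had 3.01, 3.503 and 3.44 TPM in the old libraries, against 2.73, 2.62 and 2.05 TPM in the young (log2 difference 0.32, limma adjusted p = 0.455). Tgfb1 had 2.13, 2.17 and 3.39 TPM in the old libraries, against 2.06, 2.00 and 1.80 TPM in the young (0.25, adjusted p = 0.571). In TPM as deposited both were above the young range in every old library, by little in 2 of the 3 for Tgfb1. After scaling the differences were 0.21 for Acvr2b and 0.14 for Tgfb1 (limma, adjusted p = 0.36 and 0.54). The median-of-ratios factors were 1.034 for old 2 and 0.851 for young 3. Divided by them, Tgfb1 in young 3 lies above old 2, so its scaled groups overlap. Mstn had 18.2, 21.2 and 21.7 TPM in the old libraries, against 19.7, 21.2 and 14.4 TPM in the young, which overlapped (0.15, adjusted p = 0.697). Gdf11 averaged 4.43 ± 1.76 TPM in the old group and 3.14 ± 1.08 TPM in the young group (0.36, adjusted p = 0.565), Acvr2a 7.71 ± 0.902 and 6.62 ± 1.41 TPM (0.21, adjusted p = 0.632), Smad3 33.3 ± 2.73 and 35.9 ± 5.56 TPM (−0.10, adjusted p = 0.775) and Smad7 1.95 ± 0.542 and 1.65 ± 0.369 TPM (0.15, adjusted p = 0.724; SD, n = 3 each). The library young 3 held the lowest value of its group in all 9 genes, with a mitochondrial share of 52.5%. Fstl3, under the filter, averaged 0.673 ± 0.180 TPM in the old group and 0.492 ± 0.270 TPM in the young group (SD, n = 3 each). None of the 55 other pathway genes tested was called by limma in old muscle. The macrophage markers summed to 50.6 to 80.5 TPM in the old libraries and 28.6 to 47.1 TPM in the young. The lymphocyte markers summed to 0.947 to 1.73 TPM and 0.288 to 0.522 TPM, and both were without overlap as deposited. Divided by the median-of-ratios factors, 1.194 for old 3 and 1.031 for young 1, the macrophage sums overlap. The part of these cells in the values of Fst, Tgfb1 or the other genes was not tested.

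With Cyr61 siRNA, none of the 8 genes tested and none of all 11006 genes was called, 0% of the table, and none of the 8 was at an unadjusted p under 0.05, beside 0.990% of all genes. limma voom called none either. Cyr61 itself stood at 32.9, 52.8, 45.8 and 25.5 TPM with Cyr61 siRNA, against 57.0, 64.6, 67.8 and 36.8 TPM with NT siRNA. These values overlapped, and the log2 difference was −0.53 with an SE of 0.25 (limma, adjusted p = 0.999). Mstn had 8.17, 15.9, 20.4 and 17.7 TPM with Cyr61 siRNA, against 5.80, 15.4, 13.6 and 13.6 TPM with NT siRNA (0.35, adjusted p = 0.999). The lowest library of each group was number 1, and the groups overlapped. The other 7 tested genes had differences from −0.09 for Acvr2b to 0.19 for Smad3, all with an adjusted p of 0.999, and 0 of 56 other pathway genes tested were called. Fstl3, under the filter, had 0.694 ± 0.266 TPM with Cyr61 siRNA and 0.563 ± 0.0839 TPM with NT siRNA (SD, n = 4 each).

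**Figure D4:**
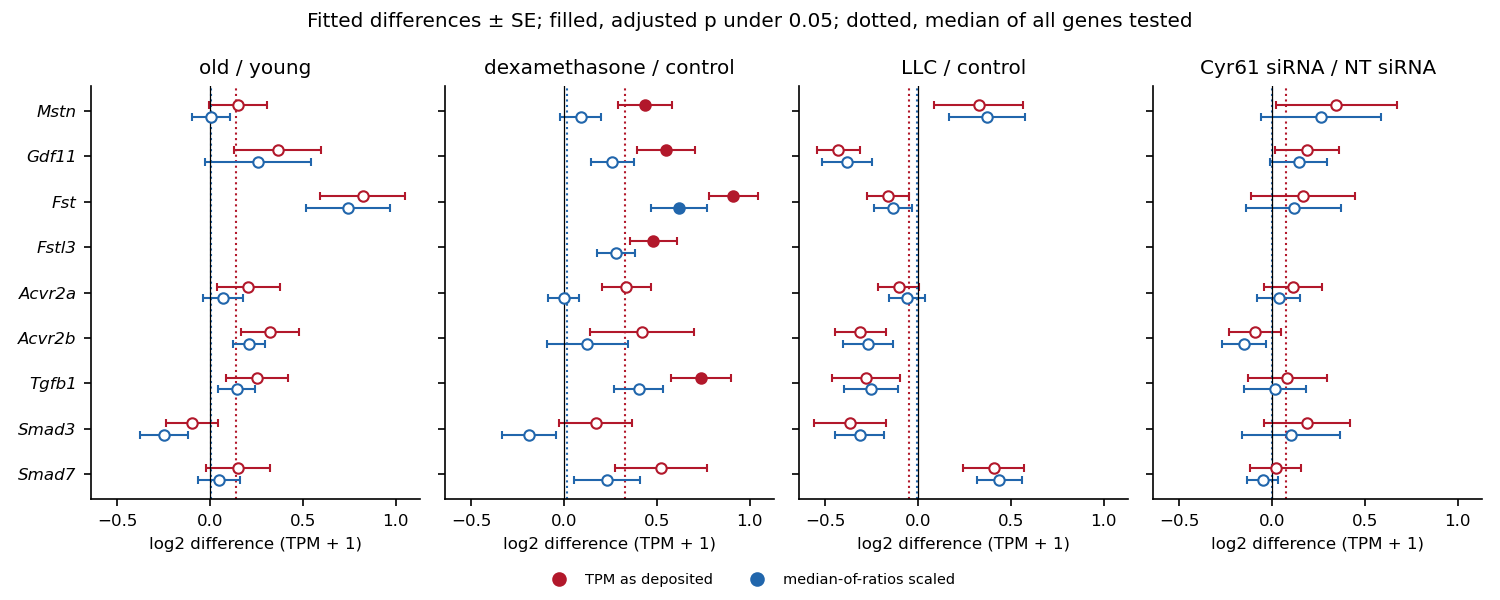
Fitted log2(TPM + 1) differences of the genes ± SE in the 4 comparisons, from TPM as deposited (red) and after median-of-ratios scaling (blue); filled points have an adjusted p under 0.05, dotted lines mark the median of all genes tested, and Fstl3 is drawn where it was tested. After dexamethasone 5 red points are filled and 1 blue point, Fst at 0.62.

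As deposited, the LLC and dexamethasone responses were called different for 4 of the 9 genes, Fstl3 with a limit given below. The median gene in this comparison of responses was at −0.37. In a fit with interaction terms over 22 libraries, the LLC response minus the dexamethasone response was −1.07 for Fst (adjusted p = 0.00607), −1.02 for Tgfb1 (adjusted p = 0.00879), −0.98 for Gdf11 (adjusted p = 0.0139) and −0.51 for Fstl3 (adjusted p = 0.0333). In the same fit 26.5% of all 12392 genes tested were called lower, and the LLC and dexamethasone groups share no library. Relative to the median gene the differences were −0.70 for Fst, −0.65 for Tgfb1, −0.61 for Gdf11 and −0.14 for Fstl3. After scaling none of the 9 was called, beside 6.56% of all genes, with an adjusted p of 0.0544 for Tgfb1, 0.0727 for Fst and 0.190 for Gdf11. Of the others, Acvr2b was at −0.73 (adjusted p = 0.0708), Acvr2a at −0.44 (0.0707), Smad3 at −0.54 (0.121), Smad7 at −0.12 (0.748) and Mstn at −0.11 (0.750), and after scaling Mstn (0.29) and Smad7 (0.23) had the other sign. Fstl3 passed the filter of this fit only through libraries of the dexamethasone experiment, so its call is not read like those of the other genes.

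Between LLC and old age none of the 9 genes differed in response by limma, beside 0.0484% of all genes, though Fst (−0.98, adjusted p = 0.139) and Gdf11 (−0.79, adjusted p = 0.266) had an unadjusted p under 0.05. Between dexamethasone and old age none of the 9 was called, beside 2.06% of all genes, and none had an unadjusted p under 0.05. limma voom called none of the 9 in either. The difference of the Fst response was 0.09 with an SE of 0.27 (adjusted p = 0.879), which leaves room for a difference in either direction.

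Pairs of members were also compared within each library, as the log2 ratio of TPM + 1 and, chosen after seeing the data, as that of TPM with no pseudocount. With the pseudocount a factor shared by all genes of a library can still move the ratio of a low gene to a higher one. As a ratio of TPM + 1, Fst over Mstn was −2.92 ± 0.462 in old and −3.59 ± 0.110 in young muscle (SD, n = 3 each), and the lowest old library, at −3.21, was above the highest young one, at −3.47. It was −1.45 ± 0.347 after dexamethasone and −1.93 ± 0.128 in the control (SD, n = 4 each), with overlap, and −3.15 ± 0.574 under LLC and −2.66 ± 0.169 in its control, also with overlap. With no pseudocount, Fst over Mstn was −3.54 ± 0.739 in old and −5.05 ± 0.632 in young muscle. It was −1.59 ± 0.380 after dexamethasone and −2.26 ± 0.149 in the control, and here the lowest dexamethasone library, at −1.96, was above the highest control, at −2.07. The ratio of trap to ligand was thus above the young range in every old library on both scales, and above the control range in every dexamethasone library on the scale with no pseudocount. Smad7 over Smad3, inhibitor over mediator, was −3.06 ± 0.311 under LLC and −3.83 ± 0.312 in the control (SD, n = 4 each), and all LLC libraries, from −3.39 to −2.64, were above all controls, from −4.23 to −3.53. With no pseudocount the values were −3.45 ± 0.379 and −4.39 ± 0.376, again without overlap. Smad7 over Smad3 overlapped in the other 3 comparisons on both scales, with −2.93 ± 0.410 after dexamethasone and −3.28 ± 0.198 in the control as ratios of TPM + 1. Gdf11 over Mstn was −2.51 ± 0.668 under LLC and −1.75 ± 0.195 in the control, and Acvr2a over Acvr2b 1.24 ± 0.147 and 1.04 ± 0.371, both with overlap. With no pseudocount Acvr2a over Acvr2b was 1.21 ± 0.0605 in old and 1.41 ± 0.106 in young muscle without overlap, whereas as a ratio of TPM + 1 these groups overlapped. No test was made on ratios. How often ratios of other genes separate the same groups was not counted, so these separations are descriptions only.

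**Figure D5:**
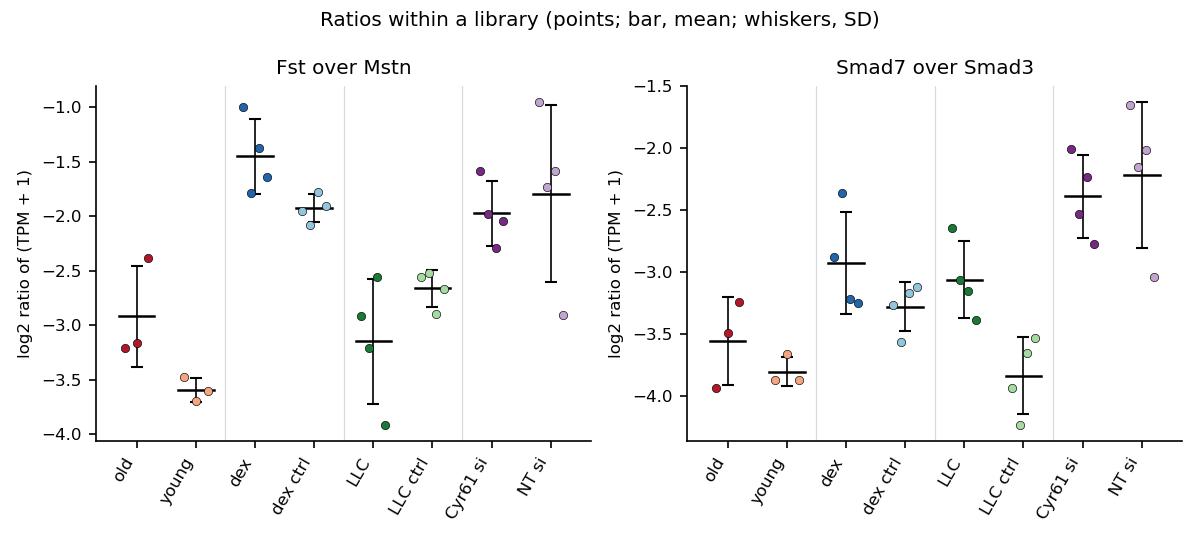
Log2 ratio of (TPM + 1) within each library (vertical axes), Fst over Mstn on the left and Smad7 over Smad3 on the right, with 1 point per library, a bar at the mean and whiskers of 1 SD. Old lies above young on the left (lowest old −3.21, highest young −3.47) and LLC above its control on the right (lowest LLC −3.39, highest control −3.53).

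The genes most like each member were found among 6710 genes of at least 5 TPM by Pearson r of log2(TPM + 1) over the 30 libraries after the mean of each experiment was subtracted. For Mstn these were Fam69a (0.852), Zhx1 (0.841) and Vwa1 (0.834), and for Smad3 Jph2 (0.834), AI464131 (0.829) and Zbed4 (0.826). Fst was most like Atp13a3 (0.863), H3f3b (0.851) and Snx4 (0.847), and Gdf11 most like Mss51 (0.785), Otub2 (0.736) and its pathway neighbour Tgfb2 (0.735). The nearest gene was Esyt1 (0.938) for Tgfb1, Uso1 (0.898) for Fstl3, Edem3 (0.935) for Acvr2a, D5Ertd579e (0.889) for Acvr2b and Eif4g3 (0.944) for Smad7. The 30 points share library composition and the treatments within each experiment, so these values describe likeness only.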

How the data were processed

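RNA of the 30 tibialis anterior samples was extracted with Trizol and made into TruSeq stranded mRNA libraries for NovaSeq sequencing, per the labels' protocols. The authors deposited TPM, with 1 column per sample, and mm10 was the genome build per the submitters' processing notes. Aligner, counting tool, strand setting, annotation and filters: not given in the sources used here. With a gene length applied, the TPM values of a gene were whole multiples of 1 read (tolerance of 0.05 read) for 23192 of 23193 genes above 0. For 15809 of these the exon length of GENCODE M21 fitted, and for 7383 another length, searched for until every value was whole. For the latter a fit was thus sought, and it says little of the true length. The read numbers of the latter are uncertain by a whole factor in either direction, and the read totals are approximate. Among the latter are Fst, Acvr2b and Tgfb1, whose read numbers were even in all 30 libraries. Those numbers may thus be too high by a whole factor, and limma voom used them as recovered. Read numbers speak for counting error only.

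The 9 members, the 5 lists of other pathway genes, the marker lists and the tests were chosen with earlier results of these data known. Every member is reported in every comparison. From each list, up to 3 called genes per comparison are named, those with the largest absolute difference relative to the median gene and at least 1 TPM in the higher group. Of the 81 list genes 80 were in the table, and Ltbp4 was not used here. A gene of the target list enters the counts and is otherwise not reported here.

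Per pair of groups, log2(TPM + 1) was fitted in limma 3.58.1 (R 4.3.3) with a variance trend. A gene entered when it reached 1 TPM in a number of libraries equal to the size of the smaller group (in 3 for the interactions). Tests were two-sided, and p-values were adjusted by Benjamini-Hochberg over all genes tested. Single members were also tested by exact permutation. Other settings were a pseudocount of 0.1 or 0.5, the filter left out or raised to 5 TPM, median-of-ratios scaling, TPM rescaled without mitochondrially encoded genes, all groups in 1 fit, a replicate block, and each library left out in turn. Chosen after seeing the data were limma voom on recovered reads, scaling together with a left-out library, and ratios of members with no pseudocount. The fits were tested on simulated data. Python 3.11.15 with pandas 2.3.3, scipy 1.17.1 and matplotlib 3.10.9 did the rest.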

Additional observations from a re-analysis of the deposited data

Results flagged for a closer look

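As deposited, the responses to LLC cancer and to dexamethasone, each set against its own control, were called different by an interaction term for 4 genes. The LLC response minus the dexamethasone response was −0.978 for Gdf11, −1.07 for Fst, −0.511 for Fstl3 and −1.02 for Tgfb1 on the log2(TPM + 1) scale, and 26.5% of all 12392 genes tested were called lower in the same fit. Fstl3 passed the filter of this fit only through libraries of the dexamethasone experiment. Gdf11 was lower under LLC than in its control in all 4 libraries (−0.43) and higher after dexamethasone in all 4 (0.55). Fst was at −0.16 under LLC and 0.91 after dexamethasone, and Tgfb1 at −0.28 and 0.74. Over 22 fits that left out 1 library each, Gdf11, Fst and Tgfb1 were called in 22 and Fstl3 in 14, and after median-of-ratios scaling none of the 4 was called. In 54 sets of values (9 genes in 6 groups of 4 libraries) no library stood apart from the others of its set beyond the 95% critical value of Dixon's test, and the groups of 3 were not tested.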

How the results depend on the processing

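Of 1111 values of named genes under other settings, 969 kept their direction and side of the threshold, 95 lost a call, 18 gained one and 29 changed sign; the cause was not tested. Without a pseudocount the Fst over Mstn difference in old muscle was 1.51, against 0.67 with it. After dexamethasone the 5 members and 4470 genes called became 4 (without Mstn, adjusted p = 0.0658) and 4283 with no filter, and 6 and 6281 in 1 fit of all 8 groups, which gained Acvr2a (0.0457) and Smad7 (0.0326) and lost Mstn (0.147). The 5 members became 1 with median-of-ratios scaling, 1 with TPM rescaled without mitochondrially encoded genes, 3 with a filter of 5 TPM, which leaves fewer members to test, 2 with limma voom and 1 with limma voom and scaled library sizes. Calls over all genes, 4470 as deposited, became 1093 with scaling, 1105 with rescaling, 1696 with limma voom and 1069 with its scaled form. Leaving out 1 library gave 2 to 9 members and 1918 to 8715 genes, and with scaling as well 0 to 1 members, with Fst between 0.50 and 0.74. Acvr2a turned to −0.0028 with scaling and −0.0033 with scaled limma voom, and Smad3 to −0.188 and −0.193 in these settings, to −0.0991 with rescaling and to −0.0166 with limma voom.

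In old muscle, calls over all genes (18 as deposited) became 0 with no filter, with scaling, with rescaling and with scaled limma voom, 5 in 1 fit of all groups and 2 with limma voom, and 0 to 274 with 1 library left out, where 0 to 1 members were called. Leaving out young 3 turned the sign of Mstn (range −0.0077 to 0.26) and leaving out young 1 that of Smad3 (−0.18 to 0.0223). Under LLC the 128 calls became 8 with no filter, 81 with a filter of 5 TPM, 351 with scaling, 546 with rescaling, 277 with limma voom and 394 with its scaled form, and 19 to 361 with 1 library left out. Of the members 1, Smad7, was called with rescaling, 0 to 1 with a library left out, and Acvr2a turned to 0.0232 with rescaling. With Cyr61 siRNA 0 to 0 genes were called with a library left out. Smad7 turned to −0.0509 with scaling, −0.0362 with rescaling, −0.0209 with limma voom and −0.0675 with its scaled form. With 1 library left out Smad7 ranged from −0.082 to 0.0765, Fst from −0.12 to 0.32 and Tgfb1 from −0.095 to 0.20.

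For the LLC minus dexamethasone response, 3416 calls and 4 members became 813 and 0 with scaling, 761 and 0 with rescaling, 880 and 2 with limma voom, and 688 and 0 with its scaled form. With a library left out they were 1700 to 6808 and 3 to 7. Mstn turned to 0.294, 0.291, 0.126 and 0.315 in these 4 settings and Smad7 to 0.231, 0.25, 0.162 and 0.351, and with a library left out they ranged from −0.33 to 0.15 and from −0.30 to 0.13. For LLC minus old, 6 calls became 14 and 10 with pseudocounts of 0.1 and 0.5, 14 with no filter, 2 with a filter of 5 TPM, 28 with scaling, 17 with rescaling, 12 with limma voom and 4 to 42 with a library left out. For dexamethasone minus old, 255 calls became 115 with a pseudocount of 0.1, 469 with no filter, 82 with a filter of 5 TPM, 92 with limma voom, 167 with its scaled form and 133 to 392 with a library left out. No member was called in either under these settings.

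Deviations of samples with the same replicate number all correlated above 0, at 0.027 to 0.498, and each comparison held a pair under 0.1. Many samples, but not all, correlated best with their own number. The labels do not say what a number stands for, so whether the numbers pair the samples cannot be told, and the main fits hold no block. A replicate block gave 6 members and 5735 genes after dexamethasone, 0 genes with Cyr61 siRNA by limma (634 at an unadjusted p under 0.05), 152 calls in old muscle with 1 member, Fst (adjusted p = 0.00547), 502 calls under LLC, 30 for LLC minus old and 408 for dexamethasone minus old. It brought Acvr2a after dexamethasone (adjusted p = 0.0455) and Acvr2b in the LLC minus dexamethasone response (0.0342) under the threshold. The call of Fst in old muscle carries the limit that Fst passed the filter only through the old group.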
